A study of Homo sapiens with 32 samples.

Results

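The 45 genes described here encode the proteins of the large (60S) subunit of the cytosolic ribosome: the RPL genes and the 3 genes of the acidic stalk, RPLP0, RPLP1 and RPLP2. They were taken by symbol and by the protein-coding biotype, and 45 of 45 were found among the 19815 protein-coding genes of each cell line. All 45 passed the filter on low counts in both lines, among 13124 genes tested in MCF10A and 13510 in MDA-MB-231. MCF10A is a non-tumourigenic human mammary epithelial line and MDA-MB-231 a triple-negative breast cancer line. Each line was kept in normoxia (N), in hypoxia at 0.5% O2 for 24 hours (H), in normoxia with the mTOR kinase inhibitor PP242 at 2.5 µM for 3 hours (NPP), or in hypoxia with PP242 (HPP). From each condition total mRNA (T) and mRNA bound to polysomes in a sucrose gradient (P) were sequenced, with 2 biological replicates of each, so that 32 libraries fall into 8 groups per line. The labels give no other treatment or allele, and each line stands for itself only. A library held between 18340916 and 46032327 counts, with a median of 34561484, and the lowest count of any of the 45 genes in any library was 2231 (RPL39 in polysomal replicate 2 of MCF10A under HPP), so counting error is small beside the difference between replicates.

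A 60S subunit carries one copy of most of these proteins, and a growing cell makes them together. Their mRNAs are the best known members of the TOP class, which begin with a cytosine followed by a run of pyrimidines (the 5' terminal oligopyrimidine tract). When mTOR complex 1 is active such mRNAs are loaded on polysomes, and when it is inhibited they leave them, a switch in which the cap- and tract-binding protein LARP1 takes part. Polysomal RNA therefore reads how many of these mRNAs are being translated by several ribosomes, and total RNA how many there are. Both are relative values here: CPM, read counts relative to the sum over protein-coding genes, after scaling by the trimmed mean of M-values (TMM), so that a fall means a fall against the other mRNAs of the same library, and fewer mRNAs per cell cannot be told apart from more of the others.

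The transcription start is where the TOP tract lies. RefSeq (GRCh38.p14) gave a start window for 38 of the 45 genes. A tract was taken as a C followed by at least 4 bases that are each C or T, on the transcribed strand, beginning at most 5 bases before or after the start, and for genes with several listed starts the one with the longest tract was used. By this rule 33 of 38 genes (86.8%) held a tract, against 6886 of all 27305 genes in the same table (25.2%). With the C required to be the start base itself, 28 of 38 (73.7%) held one, against 5.14% of all genes. The median tract was 10 bases in these genes and 3 in all genes. Windows of 30 bases, 10 before the start and 20 from it, are shown for 4 genes that fell among the most in polysomal RNA under PP242 in MDA-MB-231, for 4 whose changes were among the smallest in either line, and for 2 stalk genes that were low in polysomes of MDA-MB-231 already without the inhibitor. Capitals mark the tract.
RPL12, chr9:127451387-127451416, minus strand: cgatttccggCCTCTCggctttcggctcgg
RPL39, chrX:119791611-119791640, minus strand: ccgccagCTTCCCTCCTCTTCCTTTCTCCg
RPL27A, chr11:8682782-8682811, plus strand: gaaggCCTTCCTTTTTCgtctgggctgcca
RPL13A, chr19:49487598-49487627, plus strand: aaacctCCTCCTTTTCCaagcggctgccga
RPL41, chr12:56116623-56116652, plus strand: cttcgCCTTTCTCTCggccttagcgccatt
RPL4, chr15:66504836-66504865, minus strand: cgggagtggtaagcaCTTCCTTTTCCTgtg
RPL15, chr3:23916535-23916564, plus strand: tggggcctgctggaggagcttcacgcagtc
RPL3, chr22:39319604-39319633, minus strand: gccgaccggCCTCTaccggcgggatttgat
RPLP0, chr12:120201092-120201121, minus strand: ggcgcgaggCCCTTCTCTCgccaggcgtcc
RPLP1, chr15:69452808-69452837, plus strand: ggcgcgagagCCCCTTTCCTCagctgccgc
The tracts of RPL12 and RPLP1 begin at the listed start, those of RPL39, RPL27A, RPL13A, RPL41, RPLP0 and RPL3 begin before it and run through it, that of RPL4 begins at base 6, and none of the 3 starts listed for RPL15 has one. A letter match in such a window describes the annotated start, and the start used in these cells was not measured.

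The libraries are read first as wholes. In normoxia the 45 genes together held 6.18% and 6.42% of the protein-coding counts in the MCF10A total libraries and 8.82% and 5.58% in the polysomal ones. With PP242 the polysomal share was 2.37% and 2.54%, and with hypoxia and PP242 it was 1.70% and 0.899%. Both PP242 groups lay below both untreated normoxic libraries without overlap. In MDA-MB-231 the polysomal share was 5.99% and 5.40% in normoxia, 2.54% and 2.75% with PP242, and 1.74% and 1.83% with hypoxia and PP242, while the 8 total libraries stayed between 3.94% and 5.24%. Hypoxia alone left polysomal shares of 5.65% and 3.49% (MCF10A) and of 5.59% and 4.87% (MDA-MB-231).

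**Figure D1:**
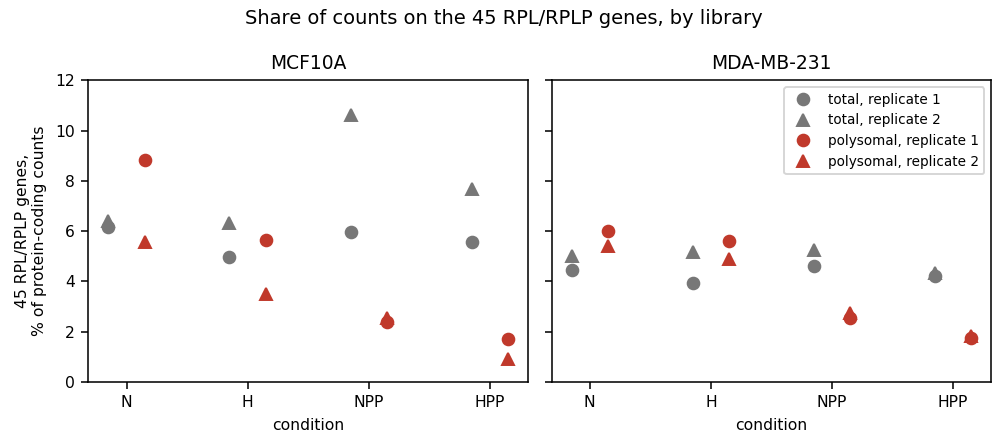
The share of protein-coding counts (%) on the 45 large subunit genes in each of the 32 libraries, by condition on the horizontal axis, with total RNA in grey and polysomal RNA in red. The polysomal libraries with PP242 sit between 0.899% and 2.75%, below all other libraries, and total replicate 2 of MCF10A with PP242 stands at 10.6%.

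In several groups of MCF10A the 45 genes stood higher or lower together in one library than in the other. In total RNA with PP242 the median gene of MCF10A was 1.36 log2 units higher in replicate 2 than in replicate 1, with an SD of 0.20 over the 45 genes. In normoxic polysomal RNA it was 1.14 lower in replicate 2 (a difference of -1.14, SD 0.23), and in polysomal RNA under HPP 0.97 lower (-0.97, SD 0.19). Normoxic total RNA (0.010, SD 0.14) and polysomal RNA with PP242 (0.031, SD 0.18) of MCF10A showed no such difference. In MDA-MB-231 the same differences ran from -0.35 to 0.63. For PP242 in polysomal RNA the median standard error over the 45 genes was 0.57 log2 units in MCF10A and 0.20 in MDA-MB-231.

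Inhibition of mTOR in normoxia lowered polysomal mRNA for the large subunit as a group. In MDA-MB-231 43 of the 45 genes fell (edgeR quasi-likelihood test, Benjamini-Hochberg adjusted p under 0.05), where 1.19% of all tested genes were called lower, and the median change was -1.30 on the log2 scale, a 2.47-fold lower level, beside a median of -0.00066 over all genes. RPL38 (-0.88 ± 0.23, SE, adjusted p = 0.069 by edgeR) and RPL41 (-0.39 ± 0.29, adjusted p = 0.626 by edgeR) did not pass. In MCF10A the median was larger, -1.89 or 3.70-fold, and all 45 estimates were negative, but 0 passed the same edgeR test, where 0.351% of all genes were called lower. There 44 of the 45 had an unadjusted p under 0.05, as had 13.3% of all genes in either direction, and DESeq2 called 31, with 2.64% of all genes called lower. Without polysomal replicate 1 of normoxia the MCF10A median was -1.19, and without replicate 2 it was -2.37. Leaving out total replicate 1 or total replicate 2 of MCF10A with PP242 brought the edgeR count to 17 and to 11, although neither library enters the contrast, and without polysomal replicate 1 with PP242 the count in MDA-MB-231 was 21.

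The largest changes were in RPL12, RPL39 and RPL27A in MDA-MB-231 and in RPL12, RPL32 and RPL39 in MCF10A. RPL12 encodes the protein at the base of the stalk. In MDA-MB-231 its polysomal level was 743 and 552 CPM in normoxia and 160.3 and 179.9 CPM with PP242. In MCF10A it was 1548 and 649 CPM in normoxia and 137 and 149 CPM with PP242. In both lines the groups do not overlap, and the fitted changes were -1.93 ± 0.20 (adjusted p = 0.000129, edgeR) and -2.94 ± 0.66 (adjusted p = 0.0629, edgeR), or 3.81-fold and 7.69-fold. RPL39, a very short protein that lines the exit tunnel, went from 987 and 980.0 CPM to 244 and 295 CPM in MDA-MB-231 and from 1355 and 479 CPM to 139.7 and 147 CPM in MCF10A. RPL27A went from 1422 and 1334 CPM to 341 and 413 CPM in MDA-MB-231 and from 2846 and 1139 CPM to 299.7 and 330.2 CPM in MCF10A. All treated libraries of these 3 genes were below all normoxic ones. RPL13A, which also has a known role outside the ribosome in silencing inflammatory mRNAs, had a change of -1.78 ± 0.20 in MDA-MB-231 (adjusted p = 0.000223, edgeR) and of -2.03 ± 0.55 in MCF10A (adjusted p = 0.114, edgeR). RPL32, second in the order in MCF10A at -2.72, stood at -1.53 in MDA-MB-231.

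**Figure D2:**
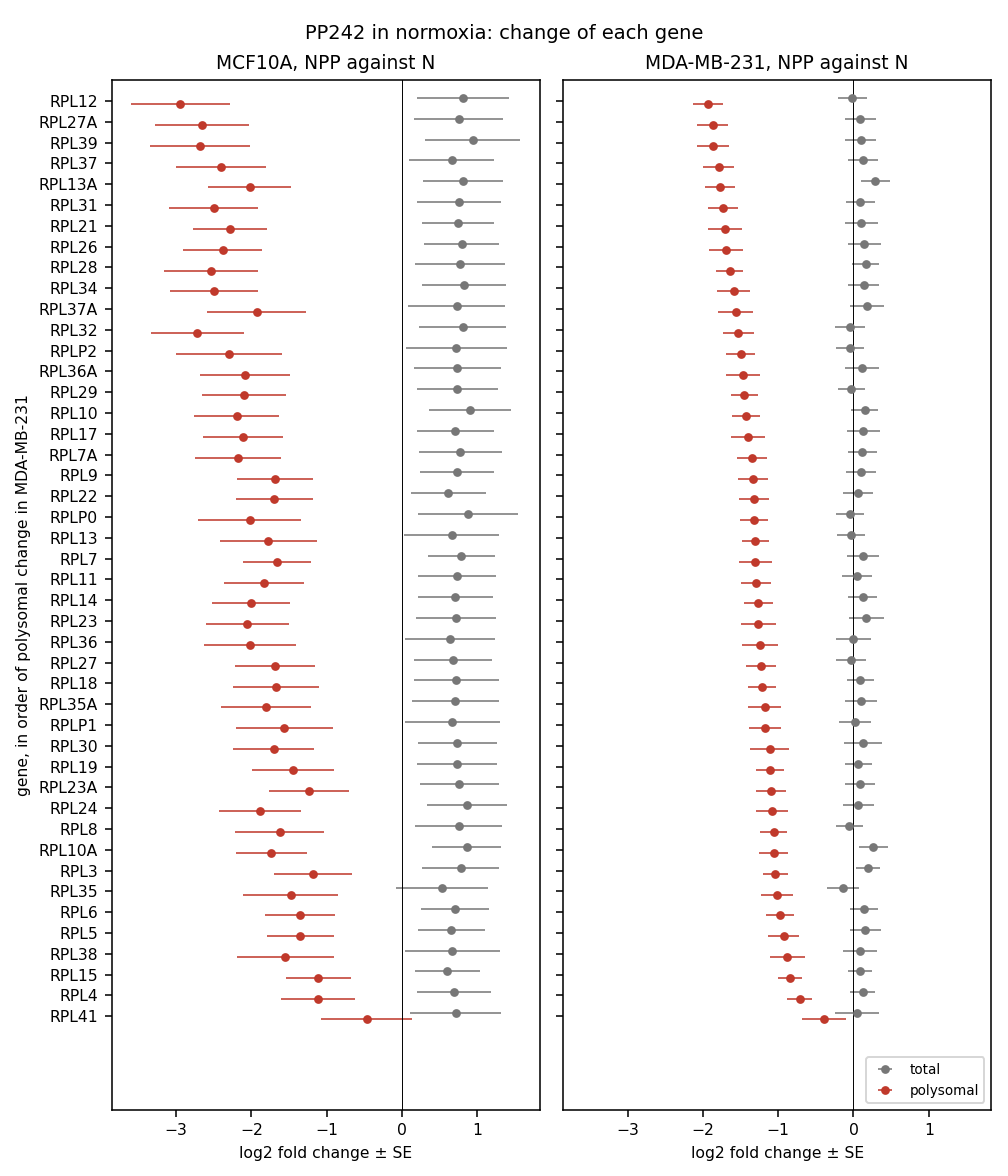
Log2 fold change with PP242 in normoxia, with its standard error as bars, of each of the 45 genes in total RNA (grey) and polysomal RNA (red), in MCF10A on the left and MDA-MB-231 on the right, ordered by the polysomal change in MDA-MB-231. Total RNA forms a narrow band in each line, while polysomal RNA spreads from -2.94 to -0.47 in MCF10A and from -1.93 to -0.39 in MDA-MB-231.

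RPL41, RPL4 and RPL15 had the smallest changes in both lines, and RPL41 passed the test in neither line. RPL41, a subunit bridge peptide of 25 codons and the shortest member, had polysomal levels of 491 and 245 CPM in normoxia and 227 and 306 CPM with PP242 in MCF10A, so that the groups overlap. In MDA-MB-231 it had 268 and 277 CPM in normoxia and 153 and 262 CPM with PP242. It lay more than 1.5 interquartile ranges above the quartiles of the 45 changes in both lines, which is the rule used here for an outlying gene, and was the only gene outlying for PP242 in polysomal RNA. RPL4, an exit tunnel protein and the longest member at 427 codons, went from 1869 and 1803 CPM to 1036 and 1206 CPM in MDA-MB-231 (-0.71 ± 0.17, adjusted p = 0.0381, edgeR) and from 3487 and 1973 CPM to 1250.5 and 1274 CPM in MCF10A (-1.11 ± 0.49). RPL15 went from 2164 and 1938 CPM to 1098 and 1191 CPM in MDA-MB-231 (-0.84 ± 0.16, adjusted p = 0.0118, edgeR). RPL3, beside the peptidyl transferase centre, went from 2199.8 and 1992 CPM to 952 and 1090.3 CPM in MDA-MB-231 (-1.04 ± 0.16, adjusted p = 0.00267, edgeR). It came next after these genes in MCF10A (-1.18), while in MDA-MB-231 RPL38 (-0.88) and RPL5 (-0.93) came next. For RPL4, RPL15 and RPL3 the treated libraries lay below the normoxic ones in both lines, at a smaller distance than for RPL12.

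Other functional groups lay between these ends. RPL5 and RPL11, which form the 5S ribonucleoprotein and bind MDM2 when ribosome assembly fails, changed by -0.93 and -1.30 in MDA-MB-231 and by -1.35 and -1.83 in MCF10A, and both fell in MDA-MB-231 by the edgeR test. The 3 proteins near the peptidyl transferase centre (RPL3, RPL8, RPL10) had a median of -1.06 in MDA-MB-231 and -1.63 in MCF10A. The 4 stalk genes had medians of -1.41 and -2.16, and the 6 exit port genes, among them RPL22, medians of -1.22 and -1.59. RPL22, known also for its extraribosomal role in lymphocyte development, changed by -1.32 ± 0.20 in MDA-MB-231 (adjusted p = 0.00243, edgeR).

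The order of the genes was alike in the 2 lines. Across the 45 genes the polysomal changes with PP242 correlated with r = 0.916 (Spearman 0.905) between MCF10A and MDA-MB-231, and with r = 0.897 over the 44 genes without RPL41. The lines share no library, but they share the annotation, gene lengths and base composition, and genes are not independent replicates, so no p is given. The total RNA changes of the same genes correlated with r = 0.293. Their SD over the genes was 0.080 (MCF10A) and 0.087 (MDA-MB-231), against 0.50 and 0.33 in polysomal RNA.

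**Figure D3:**
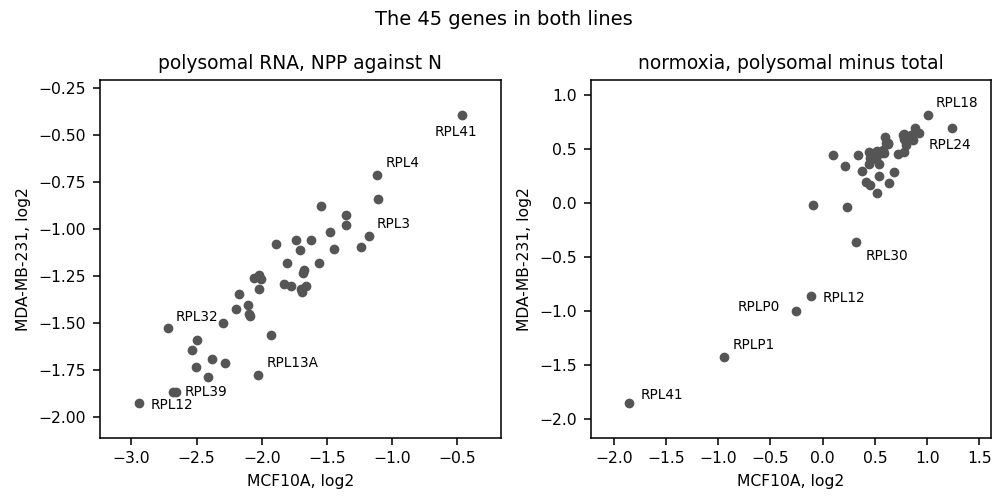
Each point is one of the 45 genes, with its log2 value in MCF10A on the horizontal axis and in MDA-MB-231 on the vertical axis, for the change in polysomal RNA with PP242 (left) and for polysomal minus total RNA in normoxia (right). RPL12 and RPL41 are the ends of the left panel (r = 0.916), and RPL41, RPLP1, RPLP0 and RPL12 trail below the others on the right (r = 0.915).

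Total RNA did not follow. In MDA-MB-231 the median change in total RNA was 0.09 with PP242 in normoxia, and in MCF10A it was 0.74. None of the 45 genes was called in total RNA in either direction in any of the 4 contrasts of either line by edgeR or by DESeq2, with 0 at an unadjusted p under 0.05 except for 1 gene in MDA-MB-231 for HPP against N. The share of all genes called in total RNA was 1.54% for H against N, 0.648% for NPP against N, 14.9% for HPP against N and 3.74% for HPP against H in MCF10A. For the same contrasts of MDA-MB-231 it was 1.27%, 0.555%, 13.2% and 3.78%. The positive median in MCF10A rested on total replicate 2 with PP242, without which it was -0.06, and likewise the HPP against N median of 0.36 was -0.05 without total replicate 2 under HPP. RPL12 shows it, with 1142 and 1234 CPM in the normoxic total libraries and 1059 and 3115 CPM with PP242. Within this narrow band RPL35, an exit port protein, was outlying on the low side for NPP against N, HPP against N and HPP against H in both lines (-0.14, -0.49 and -0.43 in MDA-MB-231), RPL10 and RPL39 were outlying on the high side for H against N, NPP against N and HPP against N in MCF10A, and RPL13A for the 3 contrasts with PP242 in MDA-MB-231. The other outlying genes in total RNA were RPL4 (0.17) and RPL27 (0.16) for HPP against N and RPL13 (0.28) for HPP against H, all low for MCF10A, and in MDA-MB-231 RPL3 on the high side for HPP against N (0.17) and HPP against H (0.08) and RPLP0 on the low side for H against N (-0.16). RPL10, a late-joining protein near the peptidyl transferase centre, had the highest of the changes in total RNA for HPP against N in MCF10A, 0.71.

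Translational efficiency (Te), the polysomal change less the total RNA change, was tested as an interaction in the same fit. With PP242 in normoxia 20 of 45 genes had a lower Te in MDA-MB-231, where 0.34% of all genes were called lower, with a median of -1.38. The lowest were RPL13A (-2.07 ± 0.27, adjusted p = 0.005, edgeR), RPL39 (-1.96 ± 0.30, adjusted p = 0.00871, edgeR) and RPL27A (-1.96 ± 0.29, adjusted p = 0.00629, edgeR), and the highest were RPL41 (-0.44 ± 0.41), RPL4 (-0.83 ± 0.23) and RPL35 (-0.88 ± 0.30), which did not pass. The total and polysomal libraries that carry the same number in their titles come from one sample, called a culture here, and with the culture as a block in the fit 1 gene was called lower, RPL13A (-2.07, adjusted p = 0.0301, edgeR), at a median of -1.38, while RPL39 (-1.97, adjusted p = 0.0561, edgeR) and RPL27A (-1.96, adjusted p = 0.0556, edgeR) no longer passed. Without the block the count moved with single libraries: it was 2 without polysomal replicate 1 with PP242, 3 without normoxic total replicate 1, 7 without normoxic polysomal replicate 1, total replicate 2 with PP242 or polysomal replicate 2 with PP242, 8 without normoxic total replicate 2, 12 without either polysomal library under HPP, and 39 without either total library of hypoxia. In MCF10A the median Te was -2.66 (-1.79 without total replicate 2 with PP242), lowest in RPL12 (-3.76 ± 0.89), RPL39 (-3.62 ± 0.91) and RPL32 (-3.53 ± 0.85) and highest in RPL41 (-1.18 ± 0.85), RPL15 (-1.72 ± 0.61) and RPL4 (-1.80 ± 0.69). There edgeR called 0 of the 45 genes and 0% of all genes lower, with 44 of the 45 at an unadjusted p under 0.05 (2.26% of all genes in either direction), and DESeq2 called 40 (0.709% of all genes lower).

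Hypoxia with PP242 gave the lowest polysomal levels. Against normoxia 45 of 45 genes fell in MDA-MB-231 (9.73% of all genes were called lower by edgeR), with a median of -1.90, and 44 of 45 in MCF10A (11.9% of all genes), with a median of -2.78, or 3.74-fold and 6.89-fold. RPL41 was the gene that did not pass in MCF10A (-1.01 ± 0.61, adjusted p = 0.257, edgeR), and in MDA-MB-231 it passed (-1.21 ± 0.30, adjusted p = 0.0119, edgeR). The lowest in MCF10A were RPL32 (-3.84 ± 0.65), RPL26 (-3.58 ± 0.55) and RPL27A (-3.49 ± 0.65), and the lowest in MDA-MB-231 RPL12 (-2.66 ± 0.20), RPL39 (-2.57 ± 0.22) and RPL27A (-2.52 ± 0.21). RPL32 had 2236 and 901 CPM in the normoxic polysomal libraries of MCF10A and 147 and 72.7 CPM under HPP, with no overlap. Without normoxic polysomal replicate 1 the MCF10A median was -2.01. The MCF10A count was 18 without normoxic polysomal replicate 1 and 12 without polysomal replicate 2 under HPP. Te was lower for 40 of 45 genes in MDA-MB-231 (0.696% of all genes) with a median of -1.74, and for 31 with the culture as a block. With 1 library left out at a time, the median without the block ran from -1.92 to -1.63. RPL13A (-2.57), RPL39 (-2.50) and RPL27A (-2.44) were lowest there, and RPL4 (-1.25), RPL38 (-1.16) and RPL41 (-1.05) highest. In MCF10A the lowest were RPL32 (-4.20), RPL39 (-4.01) and RPL26 (-3.98) and the highest RPL4 (-2.40), RPL3 (-2.33) and RPL41 (-1.41). There edgeR called 0 (0% of all genes), with a median of -3.18 (-2.53 without normoxic polysomal replicate 1), 44 at an unadjusted p under 0.05 (3.3% of all genes in either direction) and 43 called by DESeq2 (1.07% of all genes lower).

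Hypoxic cells with and without the inhibitor share no library with the normoxic comparison. Within hypoxia PP242 lowered polysomal RNA for 45 of 45 genes in MDA-MB-231 (6.62% of all genes), median -1.79, and for 25 of 45 in MCF10A (3.87% of all genes), median -2.18, by edgeR. In MDA-MB-231 RPL39 (-2.70 ± 0.22), RPL12 (-2.60 ± 0.20) and RPLP2 (-2.59 ± 0.20) fell the most and RPL4 (-1.01 ± 0.17) and RPL15 (-1.03 ± 0.16) the least, all 5 with adjusted p-values between 4.10e-06 and 0.00169 by edgeR. Here RPL41 in MDA-MB-231 was not outlying, at -1.65 ± 0.30 (adjusted p = 0.00337, edgeR). Across the 45 genes the changes with PP242 in normoxia and in hypoxia correlated with r = 0.921 in MCF10A and 0.816 in MDA-MB-231 (0.904 and 0.869 without RPL41). Without polysomal replicate 1 of H the MCF10A median was -1.50. The MCF10A count was 0 without polysomal replicate 1 of H, 0 without polysomal replicate 2 under HPP, 7 without polysomal replicate 1 under HPP, 8 without either total library of normoxia or either polysomal library with PP242, 14 without either total library of H, and 38 without either total library with PP242. Te was lower for 36 of 45 genes in MDA-MB-231 (0.622% of all genes), median -1.64, and for 23 with the culture as a block. Without the block the count was 15 without polysomal replicate 1 and 17 without polysomal replicate 2 under HPP. In MCF10A edgeR called 0 (0% of all genes), median -2.59 (-1.88 without polysomal replicate 1 of H), with 44 at an unadjusted p under 0.05 (2.07% of all genes in either direction), and DESeq2 called 39 (0.8% of all genes lower).

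Hypoxia alone changed none of the 45 genes by the test. In polysomal RNA edgeR and DESeq2 called 0 in each line, with 0 at an unadjusted p under 0.05 (12.5% of all genes in MCF10A, 17.2% in MDA-MB-231), where the edgeR calls in either direction came to 1.49% (MCF10A) and 2.29% (MDA-MB-231) of all genes. The medians were -0.75 in MCF10A, with all 45 estimates negative, and -0.11 in MDA-MB-231, with 32 of 45 negative. For Te edgeR and DESeq2 called 0 as well (0% and 0.0148% of all genes by edgeR), with medians of -0.68 and -0.16. The MCF10A medians moved with single libraries. Without normoxic polysomal replicate 1 they were -0.0062 in polysomal RNA and -0.05 in Te. Without polysomal replicate 1 of H they were -1.23 and -1.24. The median log2 CPM of the 45 genes in polysomal RNA was 11.08 and 10.07 in normoxic replicates 1 and 2. In hypoxia it was 10.27 and 9.44, lower at each replicate number. Deviations from the group means correlated with r = 0.63 between these groups, but the number was not taken as a pairing.

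Before any treatment the 45 mRNAs differed in polysomal minus total RNA, though less than genes in general. The SD over the 45 genes was 0.55 (MDA-MB-231) and 0.51 (MCF10A), against 0.68 and 0.71 over all genes. All genes include those of low counts, and no set matched to the 45 in expression level was compared. In normoxia polysomal minus total RNA had a median of 0.45 (MDA-MB-231) and 0.54 (MCF10A) on the log2 scale. Of the 45 genes in MDA-MB-231, 4 were lower in polysomal RNA (8.64% of all genes) and 9 higher (4.42% of all genes) by edgeR, so that the share of lower genes was close to that among all genes. With the culture as a block 4 were lower and 1 was higher, RPL18 (0.82, adjusted p = 0.0195, edgeR), while RPL24 no longer passed (0.69, adjusted p = 0.0725, edgeR). In MCF10A 0 were called in either direction (0% and 0% of all genes), with 2 at an unadjusted p under 0.05 (12.6% of all genes) and 0 by DESeq2 (0.77% of all genes). The 4 lower genes were RPL41 (-1.85 ± 0.30, adjusted p = 0.00175, edgeR) and 3 of the 4 genes of the stalk, the arm that recruits translation factors: RPLP1 (-1.42 ± 0.22, adjusted p = 0.00106, edgeR), RPLP0 (-1.001 ± 0.19, adjusted p = 0.0043, edgeR) and RPL12 (-0.86 ± 0.19, adjusted p = 0.0114, edgeR). RPL41 had 887 and 1081 CPM in total and 268 and 277 CPM in polysomal RNA, and RPLP1 925 and 1149 CPM in total and 449.9 and 324 CPM in polysomal RNA. RPLP0, the scaffold of the stalk, had 2216.5 and 3009 CPM in total and 1350.1 and 1260.4 CPM in polysomal RNA. The polysomal libraries of all 3 lay below the total ones. The stalk gene RPLP2, whose protein pairs with that of RPLP1, stood at -0.03 ± 0.19, and RPL30, which was outlying on the low side without passing the test, at -0.36 ± 0.25.

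In MCF10A none of these 4 genes was called. RPL41 stood at -1.85 ± 0.62 (adjusted p = 0.334, edgeR), RPLP1 at -0.94 ± 0.63 and RPLP0 at -0.26 ± 0.66, and these 3 were the outlying genes there, while RPL12 stood at -0.11 ± 0.61 and was not outlying. Without normoxic polysomal replicate 2 RPLP0 stood at 0.20 and RPL12 at 0.38, and without normoxic total replicate 2 RPLP0 stood at 0.08. The median of 0.54 in MCF10A was -0.15 without normoxic polysomal replicate 1. RPLP1 had 1702 and 1787 CPM in the total and 1344 and 475 CPM in the polysomal libraries of MCF10A. At the other end were RPL24, a subunit bridge protein, and RPL18. RPL24 had 712 and 706 CPM in total and 2349.6 and 1005 CPM in polysomal RNA of MCF10A (1.24 ± 0.54), and 760.1 and 890.3 CPM against 1465 and 1207 CPM in MDA-MB-231 (0.70 ± 0.21, adjusted p = 0.0429, edgeR). RPL18 stood at 1.00 ± 0.57 and at 0.81 ± 0.18 (adjusted p = 0.0113, edgeR). The second highest gene in MDA-MB-231 was RPL14, at 0.698 ± 0.19 (adjusted p = 0.029, edgeR). With the culture as a block RPL14 did not pass (0.69, adjusted p = 0.0574, edgeR). Across the 45 genes the values of the 2 lines correlated with r = 0.915, and with r = 0.871 without RPL41. In MDA-MB-231 the count of 9 higher genes, without the block, was 0 without total replicate 1 or polysomal replicate 1 of normoxia, 1 without normoxic total replicate 2, 4 without any one of the polysomal libraries with PP242 or under HPP, and 21 without either total library of hypoxia, and the count of 4 lower genes was 2 without normoxic total replicate 2.

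The polysomal minus total difference was below 0 in every culture with PP242. All 45 genes were below 0 in each of the 4 cultures with PP242 and in each of the 4 with hypoxia and PP242. The median gene stood at 0.99 and -0.09 in the normoxic cultures of MCF10A, at 0.55 and -0.92 in hypoxia, at -1.36 and -2.65 with PP242, and at -1.95 and -3.51 with both. In MDA-MB-231 it stood at 0.64 and 0.24, at 0.76 and -0.17, at -0.93 and -1.0, and at -1.40 and -1.27. All 45 were also below 0 in hypoxic culture 2 of MCF10A, without the inhibitor. The correlations between the cultures of a condition were 0.843 to 0.937 in MCF10A and 0.896 to 0.982 in MDA-MB-231 over the 45 genes, which share each culture's scaling. The SD over the genes lay between 0.36 and 0.64 in all 16 cultures. RPLP1 was among the 5 lowest of the 45 in 16 of 16 cultures, RPL12 and RPLP0 each in 14, and RPL41 in 13. Among the 5 highest, RPL18 stood in 7 of the 8 cultures of MCF10A and 5 of the 8 of MDA-MB-231, and RPL24 in 4 and 7. RPL8 (6 and 5) and RPL19 (5 and 5) stood there about as often. Cultures of different conditions are separate samples. In MCF10A RPL12 stood at 0.44 and -0.93 in the normoxic cultures and at -2.95 and -4.39 in those with PP242. RPL41 stood at -1.43 and -2.44 in normoxia and at -2.44 and -3.35 with PP242. The lowest gene was RPL41 in both normoxic cultures and RPL12 in both cultures with PP242. In MDA-MB-231 RPL12 stood at -0.48 and -1.26 in the normoxic cultures and at -2.72 and -2.82 in those with PP242. RPL41 stood at -1.73 and -1.96 in normoxia and at -2.57 and -2.09 with PP242, with the same lowest genes as in MCF10A.

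**Figure D4:**
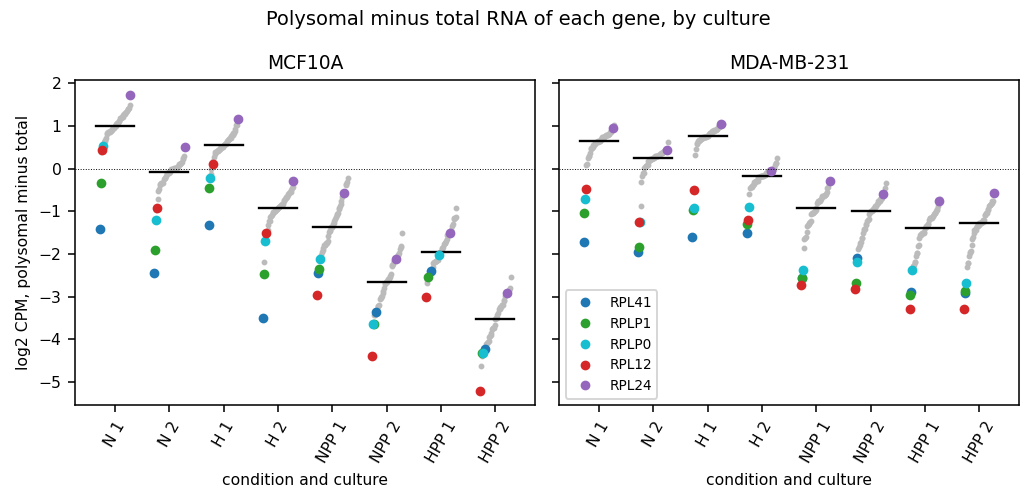
Log2 CPM in polysomal minus total RNA of the 45 genes in each of the 16 cultures, sorted within a culture, with the median as a black bar and 5 genes in colour. RPL41 is lowest in the normoxic and hypoxic cultures and RPL12 in the 8 cultures with PP242, and the MCF10A medians of culture 1 and culture 2 lie apart in every condition.

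The lines were also compared directly, in a joint fit of all 32 libraries over 14298 genes. The polysomal change with PP242 in normoxia was smaller in MDA-MB-231 for 45 of 45 genes, by a median of 0.64, and the Te change by a median of 1.19. None of the differences passed the edgeR test: 0 of 45 genes for polysomal RNA (0.126% of all genes, with 0 at an unadjusted p under 0.05, as had 4.4% of all genes), 0 of 45 for Te (0% of all genes, with 1 at an unadjusted p under 0.05, as had 0.867% of all genes), and 0 of 45 for polysomal RNA under HPP against N (3.6% of all genes, with 6 at an unadjusted p under 0.05, as had 16.7% of all genes, and a smallest adjusted p of 0.194). A larger effect in one line was therefore not shown by these libraries.

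The size of the change was set beside 2 properties of the genes. Coding length ran from 75 bases in RPL41 to 1281 in RPL4, with a median of 471 (GENCODE v44 canonical transcripts). Longer genes tended to have smaller changes. Over the 44 genes without RPL41 coding length and the polysomal change under PP242 correlated with 0.481 (MCF10A) and 0.458 (MDA-MB-231). Within hypoxia the values were 0.523 and 0.676. With RPL41 included the values were 0.297 and 0.281 for MCF10A and 0.28 and 0.627 for MDA-MB-231 in normoxia and in hypoxia. In the 38 genes with a window, pyrimidine tract length correlated with the change under PP242 in normoxia with -0.326 and -0.276. Longer tracts thus went weakly with larger changes. RPL12, with a tract of 6 bases, had the largest change, and RPL41, with a tract of 10, the smallest. These are descriptions across genes of the same libraries.

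**Figure D5:**
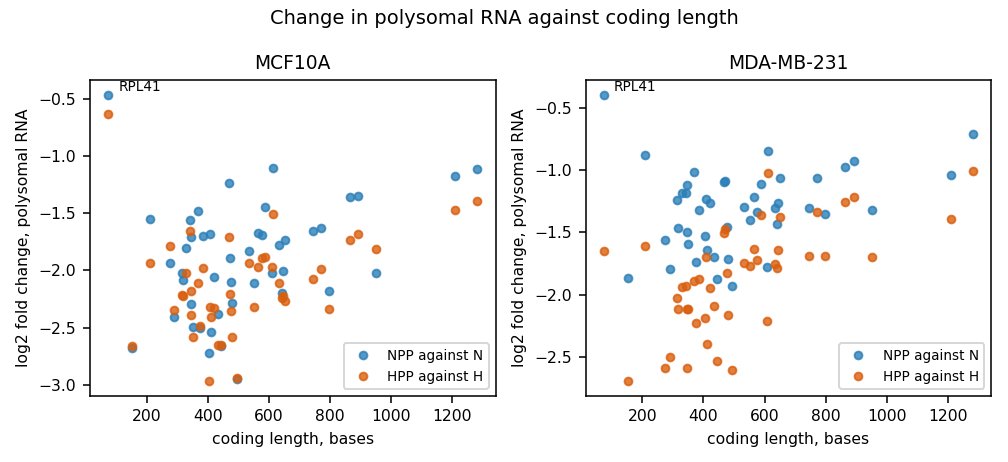
Coding length in bases against the log2 fold change in polysomal RNA of the 45 genes, for PP242 in normoxia (blue) and within hypoxia (orange), in MCF10A on the left and MDA-MB-231 on the right. RPL41, at 75 bases, stands apart at the upper left for PP242 in normoxia in both lines, and the longest genes lie towards the smaller changes.

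Paralogues of the large subunit genes divided. RPL22L1, a paralogue of RPL22, fell from 262 and 229 CPM to 79.6 and 87.6 CPM in MDA-MB-231 (-1.55 ± 0.22, adjusted p = 0.00144, edgeR), and in MCF10A had 652 and 276 CPM in normoxia and 81.0 and 75.4 CPM with PP242 (-2.57 ± 0.57, adjusted p = 0.0628, edgeR). RPL36AL, RPL26L1, RPL7L1 and RPL39L had values of -0.47, -0.52, -0.22 and 0.34 in MDA-MB-231 and of -1.12, -0.45, -0.21 and 0.27 in MCF10A, and none of them passed the test. RPL3L and RPL10L were under 1 CPM in every library and were not tested. Reads of these paralogues can be shared with their parent genes, and RSEM divided them by an estimate.

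Lists beside the 45 genes gave the following for PP242 in normoxia in polysomal RNA of MDA-MB-231. Of 32 small subunit genes 31 were called lower, with a median of -1.37, where 1.19% of all genes were called lower. Of 18 other TOP mRNAs, chiefly translation factors, 10 were called lower with a median of -0.75, the lowest being TPT1. Of 48 genes for the large subunit of the mitochondrial ribosome, made from mRNAs outside the TOP class, 1 was called lower, near that share, with a median of -0.22. In MCF10A the medians of these 3 lists were -1.82, -1.07 and -0.32, and edgeR called 0 genes of each, with 26 of 32, 14 of 18 and 3 of 48 at an unadjusted p under 0.05, where 13.3% of all genes were in either direction. Under HPP against N the mitochondrial list was called lower for 26 of 48 genes in MDA-MB-231 (median -0.58) and for 15 of 48 in MCF10A (median -1.07), beside medians of -1.90 and -2.78 for the 45 genes and 9.73% and 11.9% of all genes called lower. In total RNA of the same contrast 8 of the 48 mitochondrial genes were called lower in MDA-MB-231 (median -0.36) and 3 in MCF10A (median -0.23). Of all genes 13.2% and 14.9% were called there in either direction, and 0 of the 45 genes. For Te edgeR called 0 of the 48 in either line, with 5 and 6 at an unadjusted p under 0.05 (3.36% and 3.3% of all genes).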

How the data were processed

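Total and polysome-bound mRNA of 2 cell lines was sequenced by the authors. The deposited values are expected counts per gene, which RSEM estimated after alignment with STAR, per the labels. RSEM divides reads shared between similar genes by an estimate. The processing notes name GRCh37 and the study's methods another build, so no coordinate of the files was used. All 32 columns were matched to a sample, and 0 columns were left unmapped. Expected counts were rounded to whole numbers and kept for protein-coding genes, which held 97.4% to 99.2% of the counts. In each line the 16 libraries were fitted with edgeR 4.0.16 (R 4.3.3) as 8 groups: filterByExpr, TMM scaling, the quasi-likelihood test with 8 residual and 3.65 (MCF10A) or 6.49 (MDA-MB-231) prior degrees of freedom, and Benjamini-Hochberg adjustment over all genes, with a threshold of 0.05. CPM are TMM-scaled. Differences within a culture are of log2 CPM with a prior count of 2. Each number in the titles belongs to 1 total and 1 polysomal library of a condition, and the study describes both as RNA of one sample, so these libraries are paired. Correlations of their deviations from the group means ran from -0.25 to 0.21 in MCF10A and from 0.0024 to 0.35 in MDA-MB-231. The fit without this block follows the 8 groups, and Te and polysomal minus total RNA were fitted with the culture as a block as well. DESeq2 1.42.0, no filter, other scalings, replicate blocks and the omission of each library were the alternatives. The fits were tested on simulated data. The labels call the samples biological replicates. The p-values rest on the spread between the 2 cultures of a group, pooled over all groups of a fit and combined with the prior. In the fit without the block, total and polysomal libraries of one culture were treated as independent. Named were the genes with the 3 lowest and highest Te values with PP242 and under HPP, the 2 lowest and highest polysomal minus total values, outlying genes, 12 genes of known role, and the paralogues. Other genes given as examples were chosen after their values were seen. The members, lists and tests were chosen with earlier results of these data known. Start windows are from RefSeq GRCh38.p14 and coding lengths from GENCODE v44.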

Additional observations from a re-analysis of the deposited data

Results flagged for a closer look

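One result was flagged because it lies in rows outside the comparisons. Counts on pseudogene rows of RPL9 came to 54.6% of the counts of RPL9 itself in MCF10A and to 47.2% in MDA-MB-231, while the median over the 45 genes was 0.114% and 0.139% and RPL9 was the 1 gene above 10%. Values of RPL9 are uncertain to that extent, since reads shared between near-identical copies were divided by an estimate. Outlying samples could not be flagged in groups of 2.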

How the results depend on the processing

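The polysomal and Te medians with PP242 and under HPP stayed negative under every alternative run. Medians with no called gene crossed 0 in total RNA, in hypoxia alone in MDA-MB-231 (in MCF10A the polysomal one came to -0.0062), and in polysomal minus total RNA of MCF10A. With other tools and settings, the number of genes called lower in polysomal RNA of MCF10A with PP242 went from 0 to 31 with DESeq2, 7 with no filter and 8 with total count scaling, and within hypoxia from 25 to 43 with DESeq2 and 38 with total count scaling. For Te in MCF10A DESeq2 called 40 (NPP against N), 43 (HPP against N) and 39 (HPP against H) where edgeR called 0. In MDA-MB-231 the Te count with PP242 went from 20 to 43 with DESeq2 and 42 with no filter, and the 9 genes higher in normoxic polysomes became 22, 21 and, with TMM factors from the other genes, 15. Total count scaling moved the polysomal medians of MDA-MB-231 to -1.14 (NPP) and -1.73 (HPP). Adding pseudogene counts changed no count.

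With 1 library left out at a time, the counts of genes called lower in MCF10A ran from 0 to 17 for polysomal RNA with PP242, from 12 to 44 under HPP against N and from 0 to 38 within hypoxia. In MDA-MB-231 they ran from 21 to 44 for polysomal RNA with PP242, from 2 to 39 for Te with PP242, from 24 to 44 for Te under HPP against N, from 15 to 44 for Te within hypoxia, from 2 to 4 for polysomal below total RNA and from 0 to 21 for polysomal above total RNA, and the polysomal median under HPP ran from -2.02 to -1.74. The cause of these shifts was not tested.

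The replicate number across conditions paired samples only in part. Correlations of their deviations ran from 0.28 to 0.78 between the total groups of MCF10A and from -0.10 to 0.63 between its polysomal groups. In MDA-MB-231 they ran from -0.19 to 0.28 and from 0.0023 to 0.35. All were above 0.1 only between the total groups of MCF10A, where a replicate block left the count at 0 in every contrast, and elsewhere the number was not taken as a pairing. With it as a replicate block, the polysomal count in MCF10A stayed at 0 with PP242 and was 19 within hypoxia. With the culture, which pairs total with polysomal libraries, as a replicate block, MDA-MB-231 had 1 gene with lower Te with PP242, 23 within hypoxia and 1 gene higher in normoxic polysomes, and no other count of Te or of polysomal minus total RNA moved by over 1.5 times. A replicate block within each fraction, chosen after seeing the data, gave 35 (polysomal, PP242), 44 (polysomal, within hypoxia), 39 (Te, HPP against N) and 17 (higher in normoxic polysomes) in MCF10A, and 35 (Te, PP242), 1 (total RNA, HPP against N) and 30 (higher in normoxic polysomes) in MDA-MB-231. The crossed pairing, also chosen after seeing the data, gave 0 calls for Te and for polysomal minus total RNA in MCF10A. Each group had 2 libraries.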
